A study of Mus musculus with 23 samples.

Results

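The windows described here are those assigned to the variable (V), diversity (D) and joining (J) gene segments of the mouse immunoglobulin loci, taken by symbol from both deposited tables: 251 of 41388 windows. The heavy chain locus holds 138 of them (114 V, 20 D and 4 J), the kappa light chain locus 110 (105 V and 5 J) and the lambda light chain locus 3 V windows. Each value is a number of sequenced reads of methyl-CpG enriched DNA over a window at a gene start, 3 kb by the name of the table, so it reflects the amount of DNA carrying methylated CpG that was pulled down there, not RNA. Heart (left ventricle) and spleen were sampled in male C57Bl/6 mice kept one to a cage. The control group ate a diet without resistant starch, the high fibre group a diet rich in resistant starch, and the acetate group received magnesium acetate at 100 mM in the drinking water. The regimens began 3 weeks before minipump surgery and ran until the end of the study. The contents of the pump, the age of the mice and the food of the acetate group are not given in the sources used here. There were 4 libraries in each group except acetate hearts, which had 3, for 23 in all (11 heart and 12 spleen). The labels do not say that each library is a different animal, so p-values measure the spread between libraries.

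An immunoglobulin gene is not whole in the germline. In developing lymphocytes the Rag1 and Rag2 recombinase cuts beside the segments and the end-joining machinery splices a V, a D (heavy chain only) and a J into an exon, with the DNA in between lost or, in part of the kappa locus, inverted. Heart muscle, vessel and connective tissue cells keep the germline order, whereas the spleen is rich in B cells with rearranged loci and T cells, which rearrange their receptor genes instead. Capture can therefore differ between tissues through the number of segment copies left, through methylation of the copies, or through the mix of cells, and these cannot be told apart in bulk DNA: fewer cells of a type and less captured DNA per cell give the same count.

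The segments were matched by symbol to RefSeq on GRCm38.p6, where all 251 had an entry. The heavy members span 2.57 Mb of chromosome 12 (113428514 to 116000321), the kappa members 3.17 Mb of chromosome 6 (67555636 to 70723923) and the lambda members lie on chromosome 16 between 19085017 and 19260844. RefSeq lists 209 as V segments, 13 as V pseudogenes, 10 as D segments, 10 as D pseudogenes and 9 as J segments. A V window covers the leader and V exon of its segment with its flanks. Some V windows also overlap a neighbour, since the nearest other start is as close as 305 bp (heavy V) and 888 bp (kappa V). Igkv19-93 is the single symbol with 2 windows, both matched to the same RefSeq entry. For J and D segments, whose coding parts are short, neighbours lie so close that windows of this length overlap.

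Detection split by segment type. All 114 heavy V, 105 kappa V and 3 lambda V windows had reads. Of 20 D windows, 15 had no read in any of the 23 libraries, as had 4 of 4 heavy J and 4 of 5 kappa J windows. The D windows with reads were Ighd3-1, with a mean of 16.2 reads per heart library and 8.67 per spleen library, Ighd1-1 (9.18 and 0.75), Ighd6-1 (5.64 and 0.5), Ighd3-2 (2.27 and 0.25) and Ighd4-1 (1.09 and 0). Igkj1 was the only J window with reads, with 6 reads in high fibre heart replicate 4 and 1 in acetate spleen replicate 2. Empty windows were those with a close neighbour: 21 of 31 windows with another window start within 1.5 kb were empty and 2 of 4 between 1.5 and 3 kb, against 0 of 12 between 3 and 6 kb and 0 of 204 farther away. How reads shared by overlapping windows were counted is not given in the sources used here, so an empty D or J window is not shown to lack methylated DNA, and nothing can be said of most D and J segments.

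Depth limits the rest. The libraries held 4.12 to 9.87 M counted reads, of which 1 window, Gm10800, took 17.3% to 50.0% in heart and 48.2% to 61.2% in spleen. The segment windows together held 1739 to 10156 reads per heart library and 1397 to 2660 per spleen library. On the control diet their median was 14.8 reads in heart and 2.5 in spleen, and a count of 0 allows up to 3 reads. Acetate heart replicate 1 stood apart from the other heart libraries: it had 1739 segment reads and 127 segment windows with 3 reads or fewer, against 27 to 48 in the others. Levels below are CPM (counts relative to library size) scaled by edgeR's trimmed mean of M values (TMM). Fold changes are log2 values that edgeR draws towards 0 at low counts, so the ratio of the CPM can be larger. The SE given with a fold change is its size divided by the square root of edgeR's F statistic. This SE is approximate, and unstable for fold changes near 0. A window is called at an adjusted p under 5% over all windows tested.

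On the control diet most segment windows were captured less in spleen than in heart, while a minority stood well above heart. Of the 219 segment windows with enough reads over both tissues, 22 were higher and 141 lower in spleen by edgeR's quasi-likelihood test. Among all 33982 windows tested 72.7% were called, 32.7% higher and 40.0% lower, so the tissues differed over most windows and the segments leaned further to the lower side. Their median log2 fold change was −1.32, against −0.19 over all windows. Only 39 of the 219 passed the read filter within spleen alone; the other 180 entered through their heart reads, and that route favours a lower value in spleen, so the counts are a description and not support for a shift of the loci. The windows not tested were 18 D, all J, 1 heavy V and 4 kappa V windows.

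Other windows of like abundance also leaned to the lower side. Among the members between the quartiles of their own abundance, 94 of 109 (86.2%) were lower, 0 higher and the median was −1.58. For other windows within that abundance range the test called 2597 of 3595 (72.2%) lower, and 116 (3.23%) higher, and their median was −1.38. T cell receptor V, D and J windows, the set most alike, numbered 98 tested, of which 10 were higher and 56 lower (median −1.18); no difference between these sets was tested. Within the segments the rank correlation of the fold change with abundance was 0.0066 across the 113 heavy V windows and 0.098 across the 101 kappa V windows, both as a description. Such a correlation misses a relation that does not rise or fall steadily, so it does not show independence of abundance. All 22 higher windows were among the 39 that passed the read filter within spleen. By groups that do not overlap, 118 of the 219 segment windows had every control spleen library below every control heart library (36.2% of all windows) and 19 the reverse (30.8%).

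**Figure D1:**
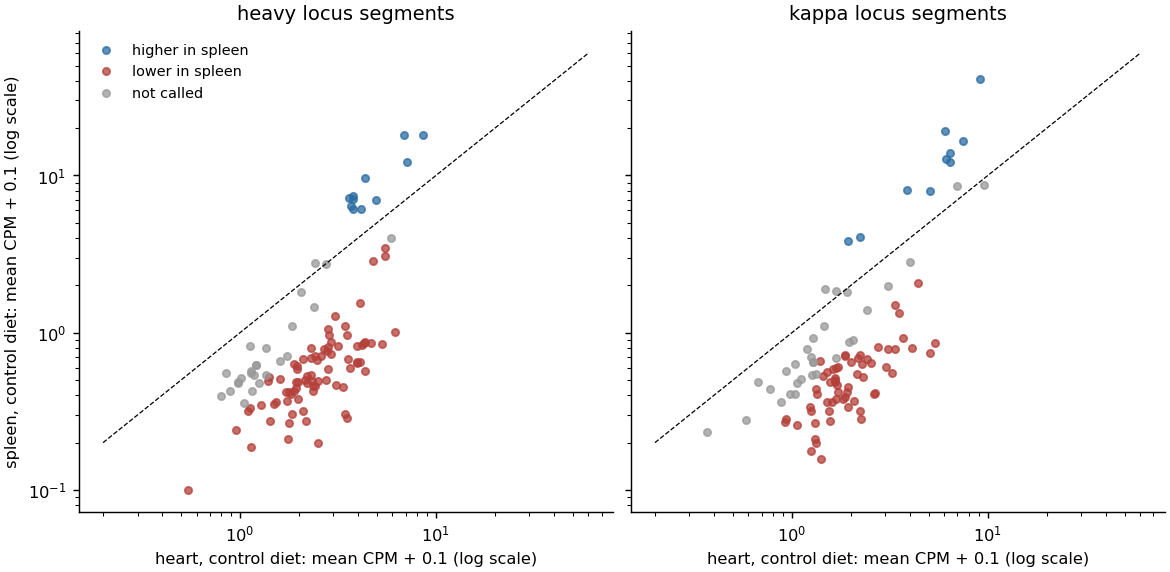
Mean level of each tested heavy (left) and kappa (right) segment window in the 4 control heart libraries (horizontal) and the 4 control spleen libraries (vertical), in CPM plus 0.1 on log axes; the dashed line marks equal levels and colour the edgeR call. A cloud of windows lies under 1 CPM in spleen below the line, and 11 heavy and 10 kappa windows called higher lie above it, with Igkv3-2 at the top at 41.0 CPM in spleen.

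Of 113 heavy V windows tested 11 were higher and 78 lower, and their median was −1.49. Ighv8-11, on chromosome 12 at 115567149 to 115567449 and 2139 kb from the J end, measured 7.76, 7.33, 6.63 and 5.43 CPM in the control hearts and 22.1, 14.5, 18.7 and 16.98 in the control spleens. The ranges did not overlap and the log2 fold change was 1.35 ± 0.18 (SE; edgeR adjusted p = 5.51e-08). Ighv1-56 (1.10), Ighv10-3 (1.04) and Ighv8-9 (0.97) were also higher. In the other direction Ighv5-4, at 113597448 to 113597741 and 169 kb from the J end, measured 6.35, 6.34, 6.19 and 5.55 CPM in heart and 0.466, 0.704, 0.978 and 1.505 in spleen. Every spleen library was below every heart library, at −2.42 ± 0.30 (edgeR adjusted p = 2.45e-08). Ighv2-6, 288 kb from the J end, was lower by a similar amount, −2.38 ± 0.31 (edgeR adjusted p = 4.18e-08).

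Members of 1 family could go opposite ways. Of 9 Ighv8 windows 4 were higher and 5 lower. Ighv8-8, 1866 kb from the J end, had 28, 38, 21 and 29 reads in the control hearts and a single read in each of the 4 control spleens. That is 3.43 ± 0.60 CPM against 0.188 ± 0.043 (SD, n = 4 each), and −2.96 ± 0.43 on edgeR's log2 scale, where so few reads draw the value towards 0. Other families were one-sided: 10 of 10 Ighv2, 5 of 5 Ighv3, 4 of 4 Ighv9 and 8 of 9 Ighv5 windows were lower and none of them higher. The large Ighv1 family had 5 higher and 36 lower of 54. These family counts are tied to the read filter and are a description. Of the 180 windows that entered through their heart reads 0 were called higher, and that route favours a lower value in spleen. All 22 higher windows passed the filter within spleen. Over all windows 32.7% were higher and 40.0% lower. Members of a family are near-identical in places, so reads could have been split or dropped between them at alignment, and their values are uncertain to that extent.

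Segments with a known use by B cells followed no single pattern. Ighv5-2, a segment that is often joined early in B cell development and lies among the V segments nearest the D cluster, measured 1.71, 2.30, 1.47 and 3.66 CPM in control hearts and 0.699, 1.97, 1.47 and 1.29 in control spleens. These ranges overlapped and the window was not called (−0.60 ± 0.36, edgeR adjusted p = 0.132). Ighv1-72, the segment of many antibodies to nitrophenyl haptens, was lower at −1.43 ± 0.40 (edgeR adjusted p = 0.00181), and Ighv11-2, used by B-1 cells that bind phosphatidylcholine, at −1.90 ± 0.40 (edgeR adjusted p = 8.23e-05). The D windows tested were Ighd1-1 (a D segment at the V side of the D cluster) and Ighd3-1. Ighd1-1 had 9, 7, 4 and 9 reads in control hearts and 0, 4, 0 and 0 in control spleens, a log2 fold change of −1.30 ± 0.47 (edgeR adjusted p = 0.0135). Ighd3-1 was level, at 2.02, 2.188, 2.06 and 1.51 CPM in heart and 0.466, 2.39, 2.12 and 1.93 in spleen (−0.11 ± 0.41, edgeR adjusted p = 0.822).

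Of 101 kappa V windows tested 10 were higher and 61 lower, and their median was −1.23. Igkv3-2 was the segment window with the most captured DNA in spleen. It lies on chromosome 6 at 70698468 to 70699067, 25.4 kb from the J end. The control hearts measured 11.8, 8.42, 7.95 and 8.08 CPM and the control spleens 55.0, 31.3, 39.6 and 38.1, so the lowest spleen was well above the highest heart. The log2 fold change was 2.12 ± 0.19 (edgeR adjusted p = 1.79e-11). Its neighbours split: Igkv3-3, 11.5 kb farther from the J end, was higher at 1.13 ± 0.18 (edgeR adjusted p = 1.20e-06), whereas Igkv3-1, the next window towards J at 5.11 kb, was lower at −1.29 ± 0.43 (edgeR adjusted p = 0.00852).

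Igkv4-81, 1733 kb from the J end, measured 7.15, 5.25, 4.57 and 6.94 CPM in heart and 21.4, 16.2, 18.1 and 20.9 in spleen, and was higher without overlap at 1.61 ± 0.19 (edgeR adjusted p = 5.60e-09). Igkv9-124 was higher at 1.00 ± 0.18. Igkv6-17 went the other way, with 4.43, 5.14, 5.74 and 4.54 CPM in heart against 0.699, 0.563, 0.652 and 0.645 in spleen (−2.49 ± 0.35, edgeR adjusted p = 1.59e-07). Igkv6-15 (−2.29), Igkv4-73 (−2.22), Igkv6-13 (−2.08) and Igkv4-91 (−1.28) were lower as well. By family, 8 of 9 Igkv6 and 7 of 7 Igkv12 windows were lower and none higher, and Igkv4 had 3 higher and 15 lower of 27. The limit from the read filter holds for these families too: all 22 segment windows called higher had passed it within spleen.

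Of the 3 lambda V windows 1 was higher, 1 lower and 1 not called. Iglv1, which encodes the V region of most mouse lambda chains, measured 7.26, 6.56, 7.22 and 6.56 CPM in control hearts and 25.9, 12.7, 16.5 and 16.98 in control spleens. All spleens were above all hearts, at 1.32 ± 0.20 (edgeR adjusted p = 8.63e-07). Iglv3 was lower at −1.19 ± 0.44 (edgeR adjusted p = 0.0150), with 0.705, 1.97, 2.65 and 1.64 CPM in heart and 0.233, 0.422, 1.14 and 0.430 in spleen. Iglv2, its neighbour at 19.2 kb, was not called (−0.88 ± 0.46, edgeR adjusted p = 0.0856); its values of 0.504, 1.42, 1.91 and 1.64 CPM in heart overlapped those in spleen, 1.16, 0.704, 0.163 and 0.430.

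**Figure D2:**
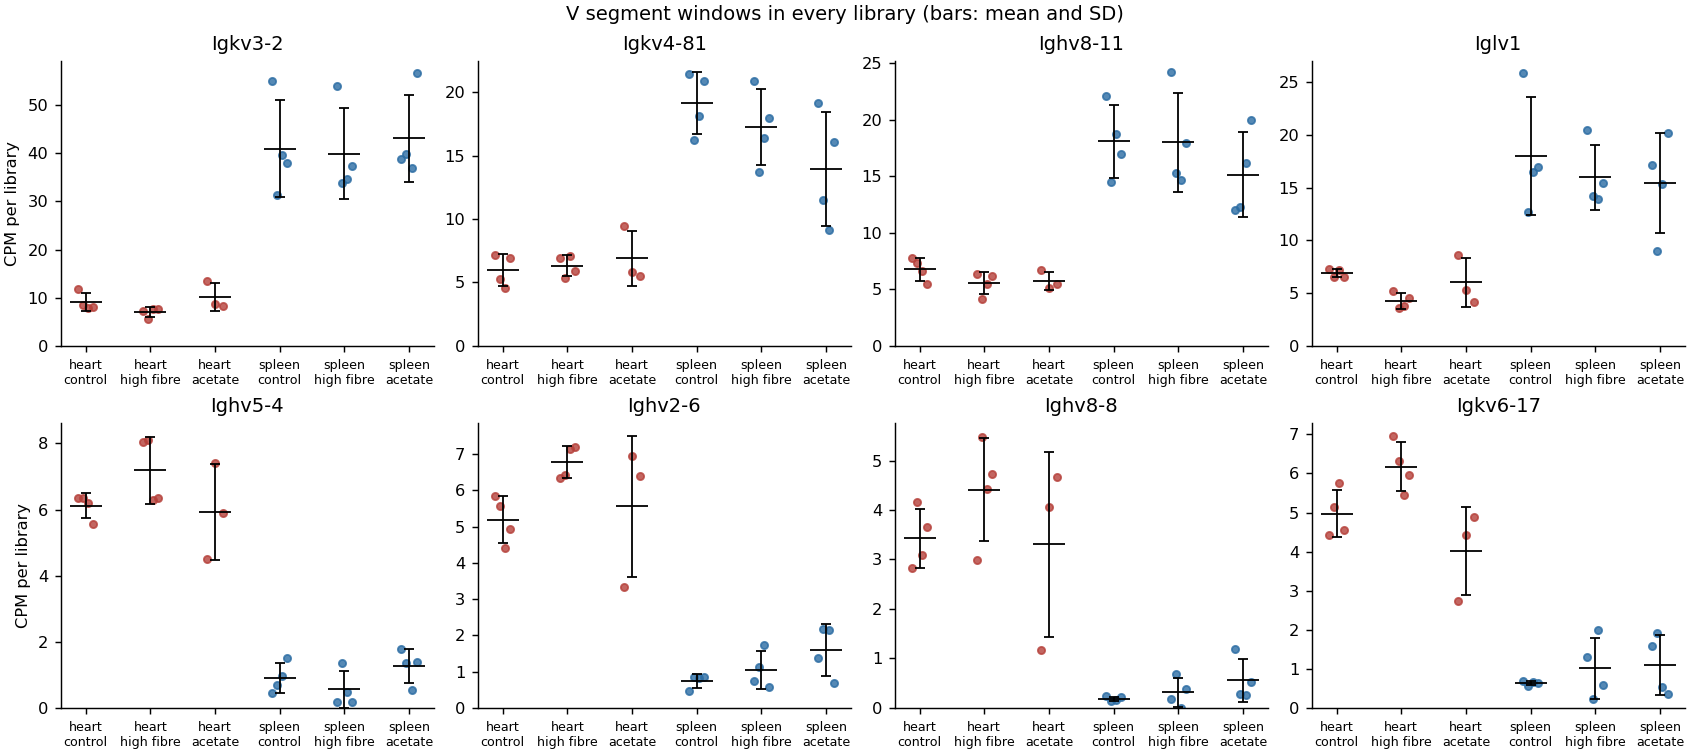
CPM of 8 V segment windows in each of the 23 libraries, by tissue and diet; points are libraries and bars the mean and SD. On each diet Igkv3-2, Ighv8-11 and Iglv1 are higher in every spleen library than in every heart library, and so is Igkv4-81 except that acetate heart replicate 1 (9.41) is above acetate spleen replicate 3 (9.17). Ighv5-4, Ighv2-6 and Igkv6-17 are higher in every heart library, and Ighv8-8 too except that acetate heart replicate 1 and acetate spleen replicate 1 are both at 1.18 CPM.

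Position within a locus was a weak guide to the tissue difference. Across 113 heavy V windows the rank correlation of the log2 fold change with distance from the J end was 0.15, and across 101 kappa V windows 0.17; windows of 1 locus share libraries and are given as a description. The V windows of each locus were cut into 4 bins by distance. In the heavy bin nearest the D and J segments 0 were higher and 24 of 29 lower, while the other bins had 2 of 28, 6 of 28 and 3 of 28 higher in order of distance. In the kappa locus the bins held 3 of 26, 2 of 25, 2 of 25 and 3 of 25 higher windows, so high windows were found at every distance. V pseudogene windows had 0 higher and 9 lower of 12, where 22 and 141 of all 219 tested segment windows were so called. Among all windows tested the shares were 32.7% higher and 40.0% lower. All 22 higher windows were V segments without the pseudogene mark in RefSeq. With only 12 pseudogene windows, no difference between the 2 kinds can be read from these counts.

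**Figure D3:**
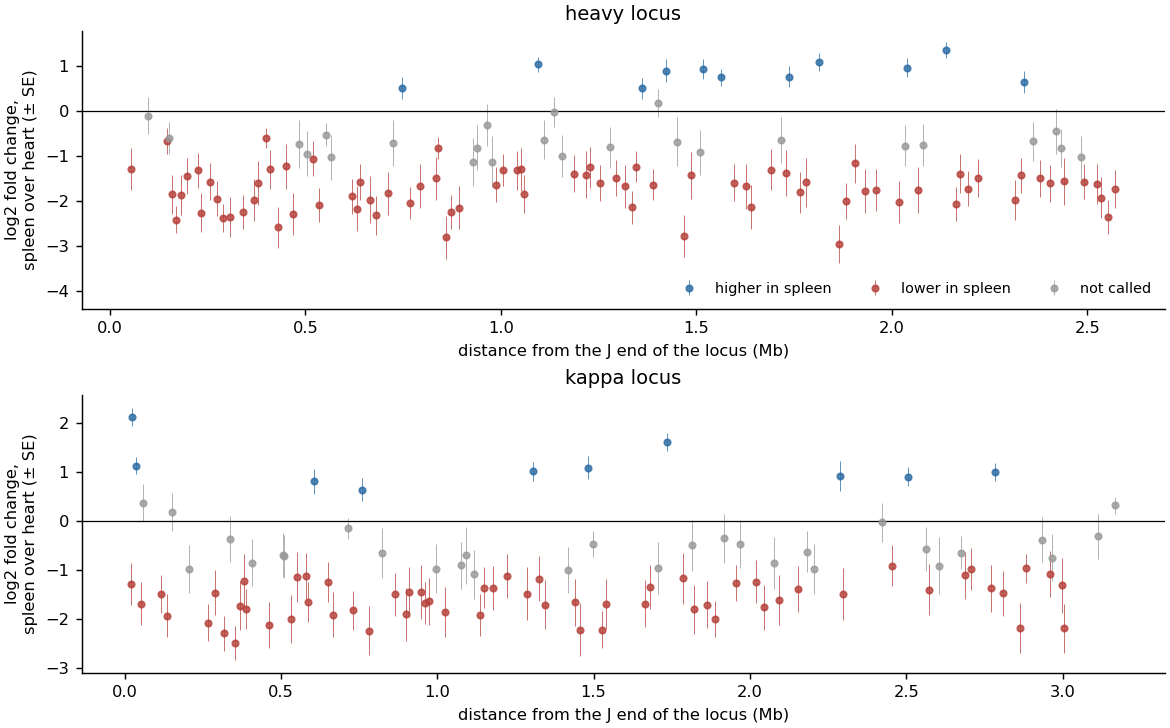
Log2 fold change of spleen over heart on the control diet (± SE) for each tested heavy (top) and kappa (bottom) window against its distance from the J end of the locus in Mb, coloured by edgeR call. Most points lie between 0 and −3 along the whole length of both loci, and the higher windows are scattered, with none in the nearest bin of heavy V windows.

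In spleen the windows fell into a few with ample capture and many with little. The 39 windows that passed the read filter within spleen had a median of 6.33 CPM in control spleens and 4.26 in control hearts, and held all 22 higher windows and 4 of the lower ones. The other 180 had medians of 0.43 CPM in spleen and 1.74 in heart. This split was drawn from the spleen reads themselves, so it is a description of levels. Heart and spleen control levels still ranked alike across the 219 windows, with a rank correlation of 0.65, given as a description in which all windows come from the same libraries. Summed over a whole locus, heavy windows came to 296 ± 35 CPM (SD, n = 4) in control hearts and 172 ± 6.5 in control spleens, and kappa windows to 232 ± 33 and 206 ± 18. The 3 lambda windows summed to 10.01 ± 1.4 CPM in heart and 19.2 ± 5.7 in spleen.

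**Figure D4:**
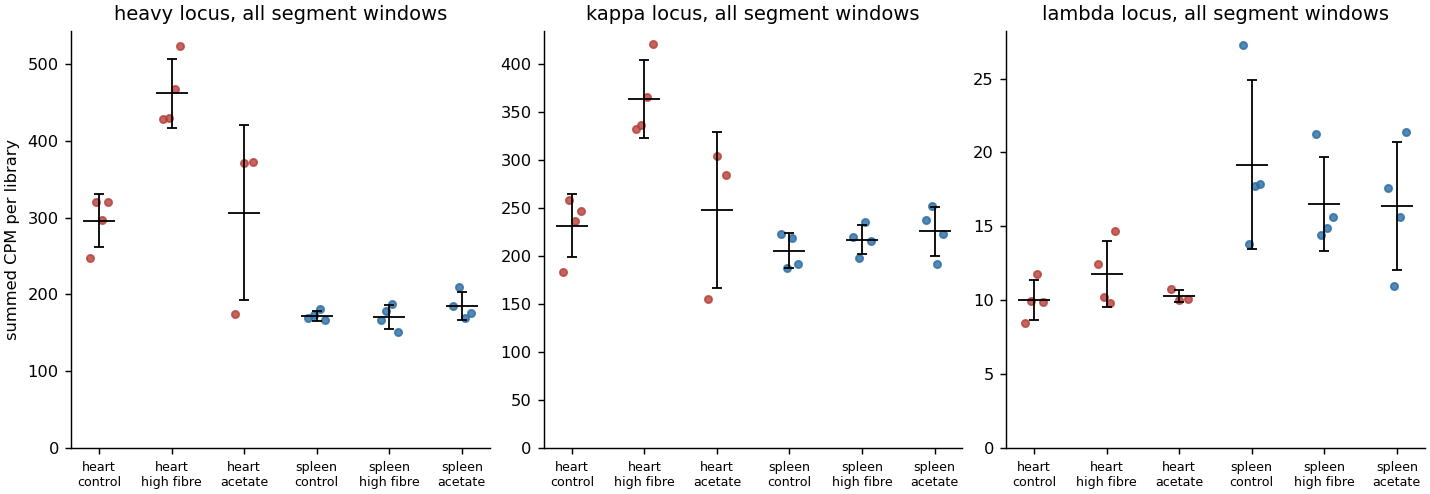
Summed CPM of all heavy, kappa and lambda segment windows in each library, scaled over both tissues; points are libraries and bars the mean and SD. Heavy sums lie between 151 and 210 in the 12 spleens and between 247 and 524 in the control and high fibre hearts, acetate heart replicate 1 is lowest of the hearts at 175, and lambda sums are higher in most spleens than in hearts.

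The tissues were also compared on the other diets, with other libraries of both tissues but the same 219 windows and the same joint fit. With high fibre 15 windows were higher and 187 lower of 219 (35.6% and 45.1% of all windows), and with acetate 16 and 111 (29.0% and 34.0%). Of the lower windows, 178 and 107 were among the 180 that entered through their heart reads, a route that favours a lower value in spleen. Among the 39 that passed the filter within spleen, high fibre gave 15 higher and 9 lower, and acetate 16 and 4. The counts are therefore a description. The acetate total of 127 was 83 without acetate heart replicate 2, 63 with a replicate block (14 higher and 49 lower) and 43 under cyclic loess (31 higher and 12 lower). The high fibre total of 202 was 56 under cyclic loess (29 higher and 27 lower). The shares of all windows called under these alternatives are not given here. Of the 22 windows higher on the control diet 13 were higher on all 3 diets, and of the 141 lower ones 98 were lower on all 3. The share of all windows called the same way on all 3 diets is not given here, so these counts show no trait of the segments. Igkv3-2 was higher at 2.47 ± 0.19 with high fibre (edgeR adjusted p = 5.02e-13) and 2.10 ± 0.21 with acetate (edgeR adjusted p = 1.05e-09). Ighv8-11 and Iglv1 were higher on both diets too, and Ighv5-4, Ighv1-84 and Ighv2-6 lower. Iglv2 was lower with high fibre, at 3.24, 3.57, 3.57 and 5.10 CPM in heart and 0.185, 0, 0.496 and 0 in spleen (−3.19 ± 0.51, edgeR adjusted p = 9.55e-07), and with acetate at −1.59 ± 0.51 (edgeR adjusted p = 0.00742).

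How much of this holds depends on the scaling. Under cyclic loess, which evens out differences that follow abundance, the control diet comparison gave 34 higher and 18 lower windows and a median of 0.03, in place of 22, 141 and −1.32. Scaling by library totals gave 3 higher and 184 lower, with all windows shifted to a median of −1.02. The shares of all windows called under these scalings are not given here. Called in the same direction under each of the 8 alternatives that keep every library and tested the window were 3 of the 22 higher windows, Igkv3-2, Igkv4-81 and Ighv8-11, and 18 of the 141 lower ones, among them Ighv5-4, Ighv2-6, Ighv8-8, Ighv1-84, Ighv11-2, Igkv6-17 and Igkv6-15. These windows kept opposite directions under each scaling run, whereas the count of lower windows moved with it. The lower windows named here did not pass the read filter within spleen and entered through their heart reads, which favours a lower value in spleen. Their calls under the alternatives are a description and not support for a shift.

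The genes that carry out and follow the recombination were looked at in the same comparison, at their own start windows. Of 13 tested genes of V(D)J recombination and joining 1 was higher and 9 lower in spleen. Among all windows tested, 32.7% were higher and 40.0% lower, and the list was not tested against these shares. Dntt, which adds untemplated bases at the joins, fell from 15.4 ± 2.7 to 2.37 ± 0.78 CPM (SD, n = 4; −2.56 ± 0.22, edgeR adjusted p = 1.87e-11). Rag2 was at 1.70 ± 0.34 CPM in heart and 0.0407 ± 0.081 in spleen (−2.55 ± 0.49, edgeR adjusted p = 2.61e-05). That spleen level lies under the floor of 3 reads. A window like this can be tested through its heart reads alone, a route that favours a lower value in spleen. Rag1 had almost no reads in either tissue and was not tested. The end-joining genes Nhej1 (−2.01), Xrcc5 (−1.70) and Xrcc6 (−0.82) and the Rag cofactor genes Hmgb1 (−1.88) and Hmgb2 (−1.54) were lower, and Atm, the kinase that signals breaks, was higher at 0.60 ± 0.12 (edgeR adjusted p = 6.79e-05).

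Because the pull-down reads methylated CpG, the start sequences of Rag2 and Dntt and of Adam6b, a gene of the ADAM family inside the heavy locus, are shown with every CG in capitals; CG reads the same on both strands. They are the 250 bases before and 50 after the RefSeq start on GRCm38.p6, plus strand: Rag2 chr2:101624462-101624761, Dntt chr19:41029025-41029324 and Adam6b chr12:113489315-113489614. They hold 3, 2 and 0 CG, where the median of 32851 such starts is 7 and 94.6% hold at least 1. The counted windows reach beyond these bases.
Rag2: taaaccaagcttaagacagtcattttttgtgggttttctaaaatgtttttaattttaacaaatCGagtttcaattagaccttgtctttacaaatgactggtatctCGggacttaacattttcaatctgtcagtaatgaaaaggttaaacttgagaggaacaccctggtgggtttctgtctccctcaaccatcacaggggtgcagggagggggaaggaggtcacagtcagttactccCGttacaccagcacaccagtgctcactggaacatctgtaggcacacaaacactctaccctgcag
Dntt: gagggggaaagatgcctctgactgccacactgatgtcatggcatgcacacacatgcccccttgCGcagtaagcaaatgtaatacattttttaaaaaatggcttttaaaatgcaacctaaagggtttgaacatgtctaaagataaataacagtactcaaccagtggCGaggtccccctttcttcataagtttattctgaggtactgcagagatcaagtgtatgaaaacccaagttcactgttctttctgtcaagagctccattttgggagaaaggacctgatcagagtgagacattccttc
Adam6b: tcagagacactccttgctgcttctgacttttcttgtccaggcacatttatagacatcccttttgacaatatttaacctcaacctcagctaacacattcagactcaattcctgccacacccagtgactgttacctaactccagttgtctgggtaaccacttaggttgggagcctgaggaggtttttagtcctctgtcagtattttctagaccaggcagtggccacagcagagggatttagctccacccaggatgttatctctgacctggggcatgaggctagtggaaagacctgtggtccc

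Windows among and beside the segments were mixed. Adam6b was lower in spleen at −1.39 ± 0.28 (edgeR adjusted p = 6.05e-05), while its near-copy Adam6a was not called (9.41 ± 1.7 CPM in heart and 7.20 ± 1.2 in spleen; −0.39 ± 0.19, edgeR adjusted p = 0.0680). Mir6388 in the heavy locus was higher at 0.87 ± 0.18, and Rprl1 in the kappa locus rose from 14.4 ± 2.2 to 35.5 ± 2.9 CPM (edgeR adjusted p = 2.63e-09). Within 1 Mb outside, 16 of 42 windows beside the heavy locus were higher and 21 lower, and 7 and 20 of 38 beside the kappa locus. For these and the constant regions, the shares of all windows to set beside are 32.7% higher and 40.0% lower. No difference from these shares was tested. Constant region windows had 2 higher and 5 lower of 9: Igha, of the IgA heavy chain, rose from 13.03 ± 1.1 to 31.2 ± 2.4 CPM (edgeR adjusted p = 3.83e-08), Iglc2 was higher at 0.66, and Ighm, of the IgM heavy chain, fell from 3.97 ± 1.0 to 1.396 ± 1.1 CPM (edgeR adjusted p = 0.000427). Igkc was lower at −1.27 ± 0.52 (edgeR adjusted p = 0.0301).

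The cell type of each tissue shows in these data only as methylation. B cell markers had 2 windows higher and 10 lower of 15 in spleen, from −2.80 to 1.33, with the B cell surface antigen gene Ms4a1 at −1.88. Their summed level was 175 to 200 CPM in control hearts and 131 to 164 in control spleens. T and NK cell markers had 3 higher and 8 lower of 14 tested, with a summed level of 214 to 242 CPM in heart and 287 to 380 in spleen. Cardiomyocyte markers had 10 higher and 4 lower of 15, from −1.18 to 1.85, including Myh6 at 1.71 and Tnnt2 at 1.12. They summed to 303 to 355 CPM in heart and 623 to 753 in spleen. No marker was at 0 in every library of a group. The surrogate light chain and B cell receptor list had 1 higher and 6 lower of 8, the locus regulators 5 and 11 of 21, and the class switch and hypermutation list 2 and 1 of 6. Over all windows 32.7% were higher and 40.0% lower, and none of these lists was tested against those shares. The part of these genes' methylation in the segment result was not tested.

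In heart, many segment windows were captured more with high fibre than on the control diet. Of 218 windows tested 92 were higher (47 heavy V, 43 kappa V and 2 lambda V) and 1 lower, where 26.2% of all 33562 windows were called, 12.6% higher and 13.6% lower. The median log2 fold change was 0.78 for the segments and 0.02 for all windows. Of other windows between the quartiles of the members' abundance, the test called 1189 of 4163 (28.6%) higher with a median of 0.54. Of members in that range it called 57 of 108 (52.8%) higher, with a median of 0.85. T cell receptor windows had 14 higher of 96 and a median of 0.26; these differences between sets were not tested. By groups that do not overlap, 108 of the 218 had all 4 high fibre hearts above all 4 controls (16.6% of all windows) and 3 the reverse (17.1%).

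Among the segments with the smallest p, Igkv6-32 measured 1.37, 2.81, 3.33 and 2.29 CPM in control hearts and 7.46, 5.25, 5.42 and 7.03 with high fibre, on the scale set within heart. All high fibre libraries were above all controls, at 1.27 ± 0.28 (edgeR adjusted p = 0.00694). Ighv6-3 measured 1.52, 0.496, 2.44 and 1.72 CPM against 4.91, 3.08, 6.85 and 7.89 (1.72 ± 0.39, edgeR adjusted p = 0.00724). Ighv1-73 (1.42) and Igkv12-46 (1.33) were similar, and in each of these 4 windows the groups did not overlap. Among those named for their known use, Ighv1-72 was higher at 0.83 ± 0.29 (edgeR adjusted p = 0.0404), while Ighv5-2 (0.75, edgeR adjusted p = 0.0541), Igkv3-1 (0.83, 0.0884), Igkv4-91 (0.44, 0.183), Ighd1-1 (0.59, 0.196) and Ighv11-2 (0.01, 0.966) did not pass.

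The lambda windows split again. Iglv3 was higher at 1.02 ± 0.33 (edgeR adjusted p = 0.0297). Iglv2 measured 0.761, 2.15, 2.89 and 2.48 CPM in control hearts and 4.91, 5.43, 5.42 and 7.74 with high fibre, a rise of 1.41 ± 0.34 (edgeR adjusted p = 0.00882). Iglv1 was the 1 segment window called lower: 10.96, 9.92, 10.9 and 9.93 CPM on the control diet and 7.83, 5.43, 5.71 and 6.88 with high fibre, at −0.66 ± 0.20 (edgeR adjusted p = 0.0212). In neither window did the groups overlap, and the 2 moved in opposite directions. Scaled by library totals, Iglv1 was at 0.01 (edgeR adjusted p = 0.970).

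**Figure D5:**
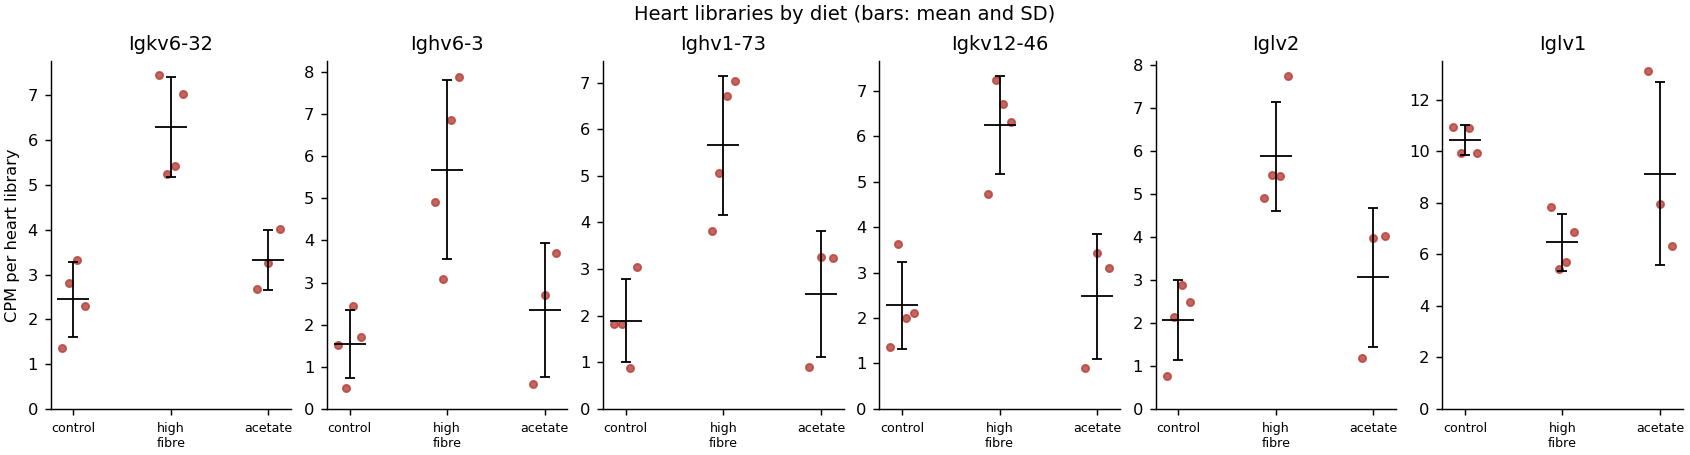
CPM of 6 segment windows in the 11 heart libraries by diet, scaled within heart; points are libraries and bars the mean and SD. In the first 5 windows the 4 high fibre hearts lie above the 4 controls, in Iglv1 they lie below, and the 3 acetate hearts are spread widely, for Iglv1 from 6.34 to 13.1 CPM.

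The rise was larger where the control level was low: across the 218 windows the rank correlation of the heart control level with the high fibre log2 fold change was −0.82, a description in which the same control libraries enter both measures. Depth and the share of Gm10800 moved with the diet. Gm10800 took 36.8% to 50.0% of the reads in control hearts and 17.3% to 21.3% in high fibre hearts, and segment windows held 0.0507% to 0.0814% and 0.151% to 0.195% of all reads. T and NK cell markers summed to 214 to 242 CPM in control hearts and 168 to 192 in high fibre hearts, without overlap, and of 14 tested 1 was higher and 5 lower. Cardiomyocyte markers summed to 303 to 355 and 281 to 310 CPM, with 1 higher and 6 lower of 15, and B cell markers to 175 to 200 and 169 to 177 CPM, with 2 higher and 4 lower of 15. No marker was at 0 in every library of a group. Over all windows 12.6% were called higher and 13.6% lower with high fibre. The part of these marker and read values in the result was not tested. The count of called segments was 11 under cyclic loess (10 higher, 1 lower), 205 by library totals, all of them higher, and 0 with 1 surrogate variable, which left 42 calls over all windows. Leaving out a single control heart gave 19 (replicate 1) or 47 (replicate 3), and leaving out a high fibre heart gave 54 (replicate 2), 43 (replicate 3) or 16 (replicate 4). Leaving out acetate heart replicate 1, which enters only through the shared spread and scaling, gave 146. Apart from the surrogate variable fit, the calls over all windows under these alternatives are not given here. The counts show only how the segment result moved. None of the 92 higher windows kept its call with the surrogate variable. Under the other 8 alternatives that keep every library, where they tested the window, all 92 kept their direction and 10, among them Igkv6-32, Igkv12-46 and Iglv2, kept their call.

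Of the 92 windows higher with high fibre in heart, 62 were among the 141 windows lower in spleen on the control diet and 1 was among the 22 higher in spleen, where 141 and 22 of all 219 tested segment windows were so called. The control hearts enter both comparisons, so the overlap is given as counts only.

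No segment was called in the other diet comparisons. Acetate against control in heart gave 0 of 218 by edgeR (0% of all windows), 5 at an unadjusted p under 0.05 and 0 by DESeq2, with a median of 0.12. Without acetate heart replicate 1 it gave 4. Igkv8-16 had the smallest p, at 1.06 ± 0.43 (edgeR adjusted p = 1.00). High fibre against acetate in heart gave 0 of 218 by edgeR (1.38% of all windows), 70 at an unadjusted p under 0.05 and 0 by DESeq2. It gave 1 without control heart replicate 1, 9 without acetate replicate 2 and 13 without acetate replicate 3, and 12 with a replicate block, 17 by library totals and 3 without a filter. For the alternatives in this paragraph the share of all windows called is not given here. These counts show only how the segment result moved. The median was 0.59, with Igkv1-131 at 1.48 ± 0.39 (edgeR adjusted p = 0.0504) and Igkv8-19 at 1.49 ± 0.40 (edgeR adjusted p = 0.0508) next to the threshold. In spleen 39 segment windows could be tested, 18 heavy V, 1 D, 19 kappa V and 1 lambda V. High fibre against control, acetate against control and high fibre against acetate each called 0 of them (0% of all 24871 windows) by edgeR and by DESeq2, with 0, 1 and 1 at an unadjusted p under 0.05. Their medians were −0.01, −0.05 and 0.02. Igkv3-2, for one, stayed at 27.6 ± 5.7, 27.1 ± 5.2 and 29.9 ± 4.6 CPM (SD, n = 4 each) on control, high fibre and acetate, scaled within spleen.

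The difference between the tissues in the high fibre effect was tested itself. Over both tissues 0 of 219 segment windows were called by edgeR (0.0559% of all windows), with 27 at an unadjusted p under 0.05, 0 by DESeq2 and a median of −0.64, negative meaning a smaller rise in spleen. Ighv6-3 had the smallest p, at −2.42 ± 0.73 (edgeR adjusted p = 0.153), and Iglv2 was at −2.32 ± 0.74 (edgeR adjusted p = 0.169). Scaling by library totals did call segment windows for this difference, with the count given under the processing below. By edgeR with TMM scaling, a segment that rose in heart and was not called in spleen is not shown to respond differently in the 2 tissues. For acetate the same test also called 0 of 219 by edgeR (0% of all windows), with 7 at an unadjusted p under 0.05 and 0 by DESeq2.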

How the data were processed

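Methyl-CpG enriched DNA (MethylMiner) from 23 libraries was sequenced, and the authors deposited raw read counts per window, 1 table per tissue. Per the submitters' processing notes, which give no order or role, the build was GRCm38 and the tools included edgeR 3.16.5, BWA 0.7.10, bcl2fastq 2.19.1.403 and featureCounts 1.5.1. Here the counts were tested with edgeR 4.0.16 in R 4.3.3 (filterByExpr at a minimum count of 10, TMM scaling, quasi-likelihood F-test, prior count of 2), within heart, within spleen, and over both tissues with 6 groups for tissue contrasts. P-values were adjusted by Benjamini-Hochberg over all windows tested, with a threshold of 5%. The floor of 3 reads covers counting error only, since reads carry no molecular identifiers. SD values give the spread between libraries. The SE of a fold change is derived from the quasi-likelihood F-test, which includes that spread. The code was tested on simulated data. Alternatives used DESeq2 1.42.0, limma 3.58.1 (cyclic loess) and sva 3.50.0, other scalings and filters, a replicate block, and each library left out. Same-numbered libraries were not treated as pairs.

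Members and gene lists were chosen with earlier results of these data known. Named segments were, for the tissue comparison on the control diet, every tested D or J window and the 4 higher and 4 lower V windows per locus with the smallest p at or above that locus' median abundance. For other comparisons they were the 4 per direction with the smallest p (2 where none passed), and in all comparisons a fixed set with known uses; the text gives those that show the range.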

Additional observations from a re-analysis of the deposited data

Results flagged for a closer look

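Within groups of 4 libraries, 130 groups of segment values and 25 groups of library summaries were examined for a library far from the other 3, and 8 values were set apart by Dixon's ratio; chance alone sets apart about 1 group in 20. Igkv3-2 was at 11.8 CPM in control heart replicate 1, where the others were at 7.95 to 8.42, and at 56.6 CPM in acetate spleen replicate 4, where the others were at 36.9 to 39.9. Igkv4-73 was at 2.74 CPM in high fibre heart replicate 2 (others 4.43 to 4.54) and at 0.554 CPM in high fibre spleen replicate 1 (others 0.193 to 0.248). Ighv2-6 was at 0.466 CPM in control spleen replicate 1 (others 0.815 to 0.860). Ighd1-1 was at 0.563 CPM in control spleen replicate 2, the only control spleen with a read there. The number of segment windows without reads was 79 in high fibre spleen replicate 1 (others 59 to 61) and 26 in high fibre heart replicate 3 (others 25).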

How the results depend on the processing

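Cyclic loess gave 11 for high fibre against control in heart (93 in the analysis reported) and 52, 56 and 43 for spleen against heart on control, high fibre and acetate (163, 202 and 127). Library totals gave 205 for high fibre against control, 17 for high fibre against acetate in heart and 29 for the tissue difference in the high fibre effect, and shifted the median of all windows to 0.69 in the first. With 1 surrogate variable high fibre against control gave 0, and without a filter high fibre against acetate gave 3. The cause of these moves was not tested. All counts in this section are of segment windows, without the share of all windows called under the same alternative.

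The replicate block gave 106 for high fibre against control, 12 for high fibre against acetate and 63 for spleen against heart on acetate. Same-numbered libraries of the 2 tissues correlated between −0.113 and 0.375, and were not treated as pairs. Titles give both tissues the same library numbers, and whether these mark 1 animal is not given in the sources used here.

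With 1 library left out, counts ranged from 16 to 146 for high fibre against control, 0 to 13 for high fibre against acetate, 0 to 4 for acetate against control, and 147 to 176, 195 to 206 and 83 to 164 for spleen against heart on control, high fibre and acetate. They stayed at 0 to 0 for the 3 spleen diet comparisons and both tests of a tissue difference.

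Among the named segments that were called, the direction turned in 10 cases. Over all called segments of spleen against heart on control, 15 of 22 higher and 105 of 141 lower windows kept their direction under every alternative that keeps all libraries. By library totals Iglv1 was at 0.0103 for high fibre against control and Igkv3-3 at −0.15 for spleen against heart on high fibre. Under cyclic loess spleen against heart on control put Ighd1-1 at 0.0317, Iglv3 at 0.23, Ighv1-72 at 0.0892, Igkv3-1 at 0.29 and Igkv4-91 at 0.0243, and on high fibre Ighd1-1 at 0.31, Ighv5-2 at 0.0217 and Ighv11-2 at 0.0518. Spleen depth limits the rest: a median of 2.5 reads per segment window on the control diet leaves most single spleen values close to the floor of 3 counts.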
